A study of Homo sapiens with 6 samples.

Results

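Long non-coding RNAs (lncRNAs) are transcripts that are not known to be read into protein, and a small number of them are found in almost every human cell type and are often studied in tumours. The transcripts described here are MALAT1, NEAT1, TUG1, DANCR, H19, MEG3, NORAD, PVT1 and OIP5-AS1. These 9 genes were chosen by name, through the Ensembl gene ID that carries each symbol in GENCODE v44 on GRCh37, out of 57773 genes listed in the deposited table of RPKM values (reads scaled to transcript length and library size). All 9 IDs were listed, 8 had at least 1 read in at least 1 library, and 7 passed the filter on low values that the tests required, an average of 0.5 RPKM or more across all 6 libraries. The rule itself uses no expression value, but the genes were chosen with earlier results of these data known.

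RNA was profiled in H460, a human non-small-cell lung cancer line. Cells had received either a non-targeting siRNA (siNT, n = 3) or an siRNA against the lincRNA HKlincR1, also called AC093323.3 (siHKlincR1, n = 3), each at 50 nM for 48 h, and each library was labelled as a biological replicate numbered 1 to 3. A single siRNA sequence stands behind all 3 siHKlincR1 libraries and a single control sequence behind all 3 siNT libraries, so an effect of losing HKlincR1 and an effect of that one siRNA cannot be told apart. The libraries held 24980280 to 30521000 reads, of which 90.1 to 91.3% lay on listed genes. KRT8 and KRT18, keratins of simple epithelium, were present at 31.5 ± 0.681 and 82.4 ± 3.27 RPKM in siNT (SD, n = 3), whereas the epithelial surface genes EPCAM, at no more than 0.110 RPKM, and CDH1, at no more than 0.00543 RPKM, were close to 0 in every library. Of the leukocyte and endothelial markers, PTPRC did not exceed 0.0691 RPKM, CD3E 0.0117 RPKM and VWF 0.00403 RPKM. Of the fibroblast markers DCN did not exceed 0.00413 RPKM, while COL3A1 and COL1A1 were present, and the list summed to 14.3 to 16.6 RPKM in siNT and 17.8 to 21.7 RPKM in siHKlincR1. The sum was carried by COL3A1, with means of 14.3 and 18.6 RPKM, while COL1A1 went the other way, with 1.10 and 0.580 RPKM. The part of these differences in the results was not tested.

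The members act in different places. MALAT1 and NEAT1 are neighbours on chromosome 11 and remain in the nucleus, where MALAT1 gathers in nuclear speckles, bodies rich in splicing factors, and the long form of NEAT1 is the scaffold of paraspeckles. NORAD is a cytoplasmic RNA that carries many Pumilio response elements and holds RNA-binding proteins of the Pumilio family, which otherwise repress mitotic and DNA repair transcripts. OIP5-AS1, the human Cyrano, carries a conserved site with extensive pairing to the microRNA miR-7, and PVT1 lies next to the oncogene MYC. DANCR is a snoRNA host transcript named for its role against differentiation, and TUG1 was first found in retina as a gene raised by taurine. H19 and MEG3 are imprinted RNAs that are strong in the fetus and in placenta. Neither MALAT1 nor the long form of NEAT1 ends in an ordinary poly(A) tail, and these libraries were made from poly(A) RNA, so the values of this pair are those of the RNA that such a selection retains.

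The siRNA and the short elements that set NORAD, OIP5-AS1 and others apart are shown first, because the later comparisons refer to them. The siRNA strand named siHKlincR1_2 has the same letters as 19 bases of HKlincR1 at chr4:6677040-6677058 on the plus strand (GRCh37), and its guide strand, which a silencing complex keeps, is the reverse complement. Capitals mark bases 2 to 8 of the guide, the seed with which a small RNA can also recognise other transcripts, and the letters of the target that pair with it.

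HKlincR1 target: gaagtatactcGTGTGCTt
guide strand as DNA: aAGCACACgagtatacttc

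The full 19 bases occurred in 1 canonical transcript of the annotation, that of HKlincR1. The 7 letters of the seed match, GTGTGCT, were searched on the transcript strand of each member. They occurred at 2 positions in the canonical transcript of NEAT1, at chr11:65203002-65203008 and chr11:65203750-65203756, and at 1 position in that of TUG1, at chr22:31375220-31375226, all on the plus strand. The canonical transcripts of MALAT1, NORAD, DANCR, PVT1, OIP5-AS1, H19 and MEG3 held none. Another transcript of TUG1 held a second match, and other transcripts of MEG3 held 2. Other transcripts of PVT1 were not searched. The capitals mark the match in its surroundings.

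NEAT1, first match: gccatctcaaaGTGTGCTgcggggatctc
NEAT1, second match: tagagtgactgGTGTGCTgtccctgttac
TUG1: ttttaaaatgtGTGTGCTtatgtttataa

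Long transcripts hold such a match often. Among canonical transcripts between 0.8 and 1.25 times the length of NEAT1, 71.9% of 64 had at least 1, and for TUG1 the share was 40.6% of 2299. Over all 55064 canonical transcripts the share was 12.0%.

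NORAD was rich in the Pumilio response element. The letters TGTANATA, on the transcript strand and with N for any base, occurred 15 times in its 5401 bases, which is 2.78 per kilobase. Of 3986 canonical transcripts of similar length, 44.4% had at least 1 such element and 0.0753% had 15 or more. NEAT1 had 6 in 22743 bases and TUG1 had 2 in 7474 bases, and the canonical transcripts of MALAT1, DANCR, PVT1, OIP5-AS1, H19 and MEG3 had none. Over all canonical transcripts 14.5% held the element. Most NORAD elements read as TGTATATA, and at 3 places 2 of them followed each other with 1 base between. The capitals mark the element in 3 of the 15, chosen to show the usual form, its position inside a tandem pair and a variant with A at the free base.

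NORAD, chr20:34637736-34637743, minus strand: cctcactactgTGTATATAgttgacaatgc
NORAD, chr20:34635592-34635599, minus strand: tgtgtatatagTGTATATAagcggacatag
NORAD, chr20:34637635-34637642, minus strand: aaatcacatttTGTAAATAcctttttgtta

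The microRNA site of OIP5-AS1 lay in a transcript other than the canonical one, at chr15:41592790-41592796 on the plus strand. Besides the seed match, GTCTTCC, 15 of the 16 remaining bases of the microRNA could pair with the site. For this, 2 site bases beside the seed match stay unpaired. The other 2 seed matches in OIP5-AS1 paired with 5 and 7 of the 16 microRNA bases, when a few site bases could likewise stay unpaired. The seed match alone was found in 13.8% of all canonical transcripts. MicroRNA sequence is from RefSeq, and the capitals mark the seed and its match.

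miR-7-5p: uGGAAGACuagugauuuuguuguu
OIP5-AS1 site: taagaacaacaaaatcaccaatGTCTTCCa

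**Figure D1:**
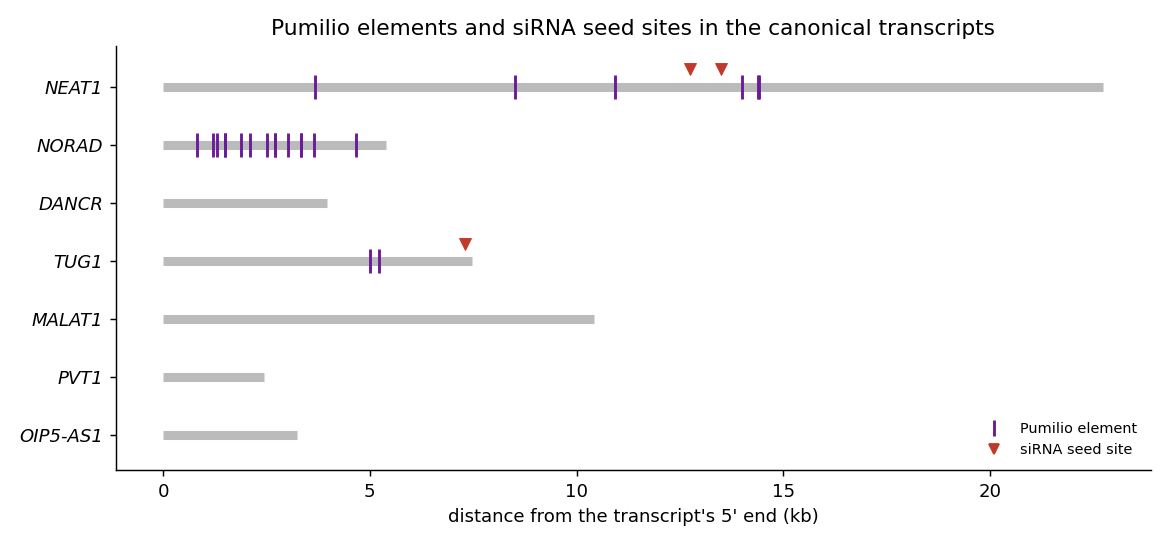
Position of Pumilio elements (bars) and of matches to the siRNA seed (triangles) along the canonical transcript of each of the 7 tested lncRNAs, in kilobases from the 5′ end. NORAD holds 15 elements within 5401 bases, NEAT1 holds 6 elements and 2 seed matches, and TUG1 holds 2 elements and 1 seed match.

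The siRNA target was reduced in every treated library. HKlincR1 stood at 3.62, 3.47 and 3.83 RPKM in siNT replicates 1 to 3 and at 0.563, 0.628 and 0.390 RPKM in the siHKlincR1 libraries. Behind these values were 221 to 245 reads per siNT library and 27 to 42 per siHKlincR1 library. The groups did not overlap, and the mean fell by 85.5% (log2 fold change -2.59, SE 0.17, limma adjusted p = 0.00245; exact two-sided permutation p = 0.10, the smallest that 3 against 3 allows). HKlincR1 therefore served as the measure against which the members' levels were set in the control cells.

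Levels came first. NEAT1, the scaffold of paraspeckles, was highest, with 49.9, 40.7 and 31.7 RPKM in the siNT libraries and a mean of 40.8 ± 9.12 (SD, n = 3). This level was 11.3 ± 2.79 times that of HKlincR1 in the same library and ranked 10 among lncRNA genes, a ranking that also takes in TUG1 and HKlincR1, which GENCODE v44 lists as protein-coding. NEAT1 is counted over 22767 bases. The short form of this gene covers only its first part, so reads from the short form are divided by a length that it does not have. NEAT1 alone took 54.6 to 61.1% of all reads on the members in the siNT libraries.

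NORAD and DANCR came next and could not be placed in order. NORAD stood at 31.3, 32.5 and 24.1 RPKM in siNT (29.3 ± 4.51, 8.10 ± 1.59 times HKlincR1), and DANCR at 27.0, 23.8 and 34.2 RPKM (28.3 ± 5.30, 7.75 ± 1.06 times HKlincR1). The order of this pair turned over in replicate 3, where DANCR was 1.41 times NORAD, against 0.863 and 0.733 times in replicates 1 and 2. The lowest DANCR library, at 23.8 RPKM, was still above the highest TUG1 library, at 19.5 RPKM. This order depends on length, since DANCR was divided by 1615 bases and its canonical transcript has 3959.

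TUG1, which GENCODE v44 lists as protein-coding because of a reading frame now annotated in it, stood at 19.5, 19.3 and 17.2 RPKM (18.7 ± 1.26). MALAT1 stood at 20.9, 18.5 and 12.4 RPKM (17.3 ± 4.39). These overlapped, with 5.14 ± 0.567 times HKlincR1 for TUG1 and 4.78 ± 1.36 for MALAT1. The RNA that is known as among the most plentiful nuclear lncRNAs ranked 27 among lncRNA genes and 2980 among all genes in these poly(A) libraries.

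PVT1 and OIP5-AS1 were lowest of the 7 in RPKM and also overlapped. PVT1 stood at 11.6, 11.3 and 12.3 RPKM, and its ratio to HKlincR1 was the most even of the 7, at 3.20, 3.25 and 3.21. OIP5-AS1 stood at 11.4, 11.6 and 10.3 RPKM, a ratio of 3.05 ± 0.340. Both places depend on the lengths that RPKM divides by, 12009 bases for OIP5-AS1 and 5493 for PVT1. Their canonical transcripts have 3231 and 2444 bases. DANCR was divided by 1615 bases and HKlincR1 by 2311. In siNT, OIP5-AS1 had 3075 to 4251 reads per library and DANCR had 1174 to 1378. In the siNT libraries each of the 7 was higher than HKlincR1, and the closest values were 10.3 RPKM for OIP5-AS1 and 3.83 RPKM for HKlincR1. HKlincR1 itself ranked 147 in the same ranking.

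H19 and MEG3 were near or at 0. H19 had 0, 1 and 2 reads in the siNT libraries and 0, 22 and 1 in the siHKlincR1 libraries, as the smallest whole reads that its RPKM values allow. The single higher value, 0.271 RPKM in siHKlincR1 replicate 2, has an exact Poisson interval of 13.8 to 33.3 reads (95%, counting error only), while the other 5 libraries were below the level of 3 reads, which was 0.0350 to 0.0427 RPKM. MEG3 was listed at 0 in all 6 libraries. Their imprinted partners were low as well. IGF2, which shares an enhancer with H19, did not exceed 0.0878 RPKM, and DLK1, MEG8, MEG9 and DIO3 of the MEG3 domain were listed at 0 throughout. Neither gene was tested, and no fold is given.

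**Figure D2:**
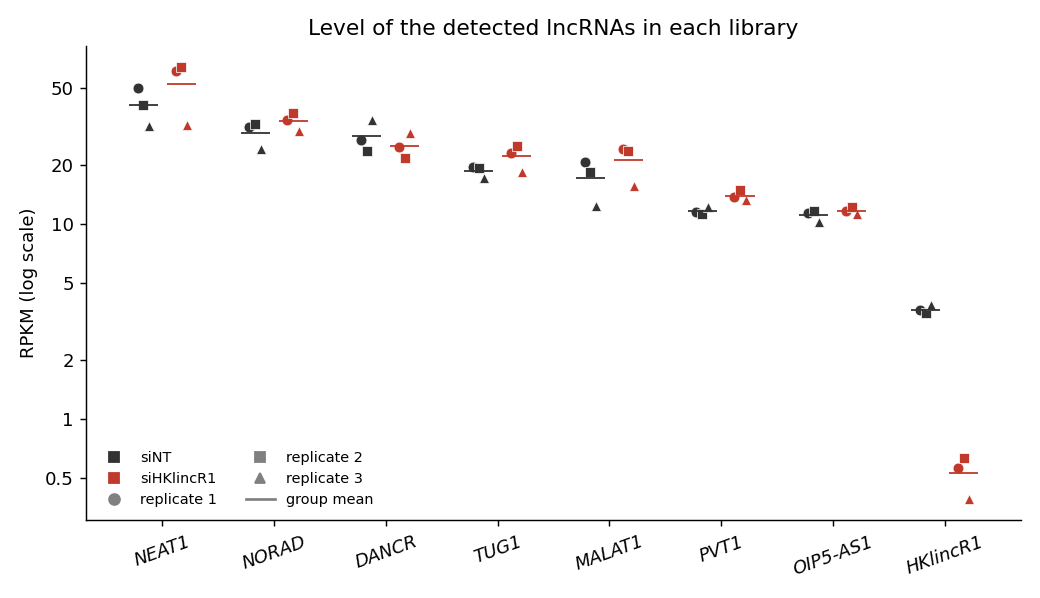
RPKM on a log scale for the 7 tested lncRNAs and HKlincR1 in each of the 6 libraries, with siNT in black, siHKlincR1 in red, replicate numbers as symbols and group means as lines. Each of the 7 overlaps in siNT with a neighbour in the order, the 7 lie above HKlincR1 in all libraries, and HKlincR1 drops from a mean of 3.64 to 0.527 RPKM.

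In RPKM the members were not the highest lncRNA genes in these poly(A) libraries. That order depends on the lengths that RPKM divides by, such as 3759 bases for SNHG29 and 22767 for NEAT1. SNHG29, a snoRNA host, led at 201 ± 11.3 RPKM (SD, n = 3 siNT libraries), before LINC00824 at 106 ± 3.27, ZFAS1 at 71.4 ± 0.980, PPP1R3B-DT at 69.8 ± 3.92 and SNHG16 at 57.3 ± 0.598. LINC00824 lies on chromosome 8, 218168 bases past the annotated end of PVT1 and on the opposite strand, and was counted at about the level of MYC, which stood at 106 ± 11.1 RPKM.

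The next question was whether depletion of HKlincR1 moved these lncRNAs. Over 15451 tested genes, a call required a limma p under 0.05 after Benjamini-Hochberg adjustment together with a fold change above 1.5. None of the 7 tested members was called. Over all tested genes 0.362% were called, 55 lower and 1 higher after siHKlincR1. Same-numbered libraries were also taken as pairs, which the labels do not state. Their deviations correlated at 0.142, 0.137 and 0.266, against at most 0.113 for other numbers. With that replicate block 1.32% of genes were called, 125 lower and 79 higher, again without a member. Without siHKlincR1 replicate 3 the number of genes called was 520, and without any other single library of either group it was 7 to 18, with no member in any of these. An unadjusted p under 0.05 was found for 1 of the 7 members, beside 16.2% of all genes, and with the replicate block for 6 of the 7, beside 26.3%. RPKM is a share of a library's reads over a mixed population, so more RNA per cell and more cells that carry it cannot be told apart.

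PVT1 was the one member whose groups did not overlap. It stood at 13.8, 14.9 and 13.2 RPKM after siHKlincR1, each above the highest siNT library, at 12.3 RPKM. Its log2 fold change of 0.25 (SE 0.07, limma unadjusted p = 0.0110, adjusted p = 0.214) corresponds to a 1.19-fold difference with a 95% interval of 1.06 to 1.34, and the exact two-sided permutation p was 0.10. Genes with all siHKlincR1 libraries above the siNT libraries made up 10.1% of those tested, so 1 of 7 is near that background. Genes with all of them below made up 11.9%, and no member was among them.

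The nuclear pair had the larger estimated differences and the larger spread. NEAT1 stood at 60.8, 63.5 and 32.2 RPKM after siHKlincR1, with replicate 3 the lowest library of both groups, and the groups overlapped. Its log2 fold change was 0.32 (SE 0.28, limma adjusted p = 0.585), with an interval of 0.787 to 1.97-fold. MALAT1 stood at 24.4, 23.7 and 15.7 RPKM and also overlapped with its siNT values (log2 fold change 0.31, SE 0.24, limma adjusted p = 0.531). In this fit both intervals, up to 1.97-fold for NEAT1 and 1.82-fold for MALAT1, reached past 1.5-fold. Without siHKlincR1 replicate 3 the log2 fold change of NEAT1 was 0.63 (limma adjusted p = 0.0797) and that of MALAT1 was 0.51 (limma adjusted p = 0.168). Without siNT replicate 3 they were 0.15 and 0.08, without siHKlincR1 replicate 1 they were 0.17 and 0.19, and without siHKlincR1 replicate 2 they were 0.14 and 0.21. Without siNT replicate 1 they were 0.47 and 0.46.

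Much of that spread followed the replicate number. With the replicate block the interval of MALAT1 narrowed to 1.12 to 1.36-fold (limma adjusted p = 0.0557), and that of NEAT1 to 1.01 to 1.54-fold (limma adjusted p = 0.180). In pairs 1 to 3 the siHKlincR1 library held 1.17, 1.28 and 1.27 times the MALAT1 of the siNT library. For NEAT1 these values were 1.22, 1.56 and 1.02, so its mean rests largely on pair 2. The ratio of NEAT1 to MALAT1 was 2.38 in siNT and 2.41 in siHKlincR1 on average (exact two-sided permutation p = 1).

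NORAD and TUG1 were a little higher after siHKlincR1, within their spread in the fit without the block. NORAD stood at 34.2, 37.0 and 30.1 RPKM (log2 fold change 0.21, limma adjusted p = 0.442, interval 0.934 to 1.43-fold). TUG1 stood at 23.2, 25.0 and 18.5 RPKM (log2 fold change 0.24, limma adjusted p = 0.349, interval 0.975 to 1.44-fold). The groups overlapped for both genes, and both 95% intervals ended below 1.5-fold. With the replicate block the intervals were 1.05 to 1.28-fold for NORAD and 1.05 to 1.33-fold for TUG1 (limma adjusted p = 0.101 and 0.107).

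OIP5-AS1 and DANCR had the smallest estimated differences. OIP5-AS1 stood at 11.6, 12.2 and 11.2 RPKM and differed by 1.06-fold, with an interval of 0.932 to 1.20-fold (limma adjusted p = 0.621). DANCR was the only member with a lower mean, at 24.7, 21.8 and 29.3 RPKM after siHKlincR1 (log2 fold change -0.16, limma adjusted p = 0.623, interval 0.695 to 1.16-fold). Within pairs the difference of DANCR was -8.52%, -8.31% and -14.3%. With the replicate block its interval was 0.820 to 0.978-fold (limma adjusted p = 0.134). Leaving out single libraries moved its log2 fold change between -0.27 (without siNT replicate 2) and -0.02 (without siNT replicate 3).

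**Figure D3:**
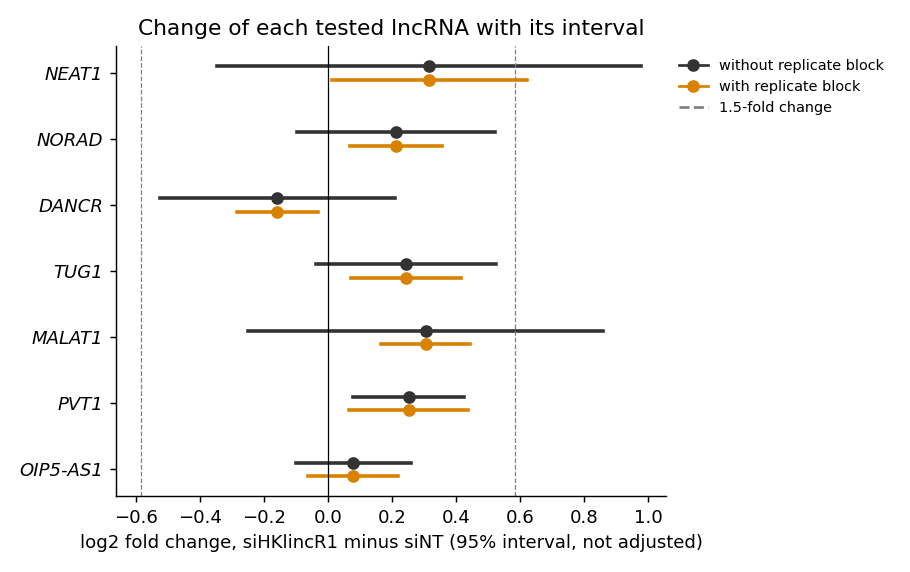
Estimated log2 fold change of the 7 tested lncRNAs (siHKlincR1 minus siNT) with 95% limma intervals not adjusted for multiple testing, in black without and in orange with the replicate block. Dashed lines mark a 1.5-fold change, and only the unblocked intervals of NEAT1 and MALAT1 and the blocked one of NEAT1 cross the upper line.

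Compared within pairs of the same replicate number, 6 members were higher in all 3 pairs, beside 24.0% of tested genes, and DANCR was lower in all 3, beside 25.2%. Of the 50 tested lncRNA genes at 10 RPKM or more in siNT, which include 6 of the 7, 26 were higher in all 3 pairs and 3 were lower. The sizes were small. The median log2 fold change of the 7 was 0.22 in pair 1, 0.36 in pair 2 and 0.11 in pair 3. A median of 0.24 over the 7 compared with 0.00 over all tested genes. The 7 members were read from the same 6 libraries and are not independent of each other.

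**Figure D4:**
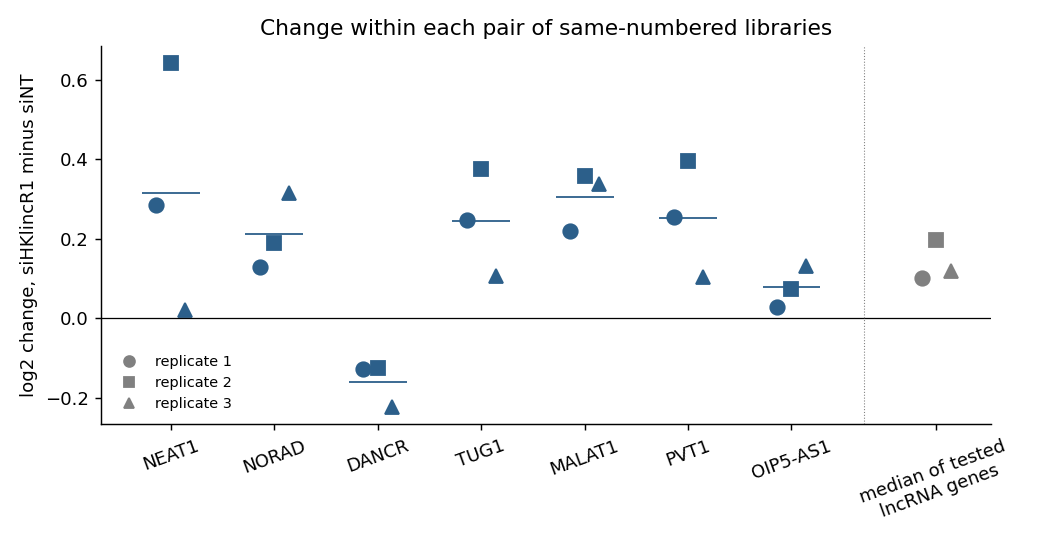
Log2 change (siHKlincR1 minus siNT) of each tested lncRNA within each pair of same-numbered libraries, with the mean of the 3 pairs as a line, and at the right the median of 946 lncRNA genes in each pair. NORAD, MALAT1, NEAT1, TUG1, PVT1 and OIP5-AS1 are above 0 in all pairs and DANCR below, and the lncRNA medians are 0.10, 0.20 and 0.12.

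More lncRNA genes had a higher than a lower mean after siHKlincR1. No test of the class was run. Of 946 tested lncRNA genes by GENCODE v44, 632 (66.8%) had a higher mean after siHKlincR1 and 314 a lower one, with a median log2 fold change of 0.14, and 31.9% were higher in all 3 pairs against 10.5% lower in all 3. For 10866 protein-coding genes the median was -0.01 and 47.2% had a higher mean. Without the members of this class the lncRNA median was also 0.14. Among the 50 lncRNA genes at 10 RPKM or more in siNT, which include 6 of the 7 tested members, 41 had a higher mean, and the median was 0.16. No lncRNA gene of these 946 was called. An unadjusted limma p under 0.05 was found for 118 of the 946, beside 2508 of all 15451 tested genes (16.2%). HKlincR1 is not among the 946, since GENCODE v44 lists it as protein-coding. With the replicate block 12 were called, 10 higher and 2 lower. LINC02806, a low gene with a mean of 0.659 RPKM in siNT, had the largest log2 fold change of these, 1.63 (limma adjusted p = 0.0194). The 2 lower genes, which have no symbol, were at -1.20 and -1.001 (limma adjusted p = 0.0365 and 0.0444). BCAN-AS2 was at 0.78 (limma adjusted p = 0.0138) and NBR2 at 0.80 (limma adjusted p = 0.0467). The members lay inside the range of other lncRNAs, with the tested 7 from -0.16 to 0.32 and the class from -1.38 to 1.63.

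**Figure D5:**
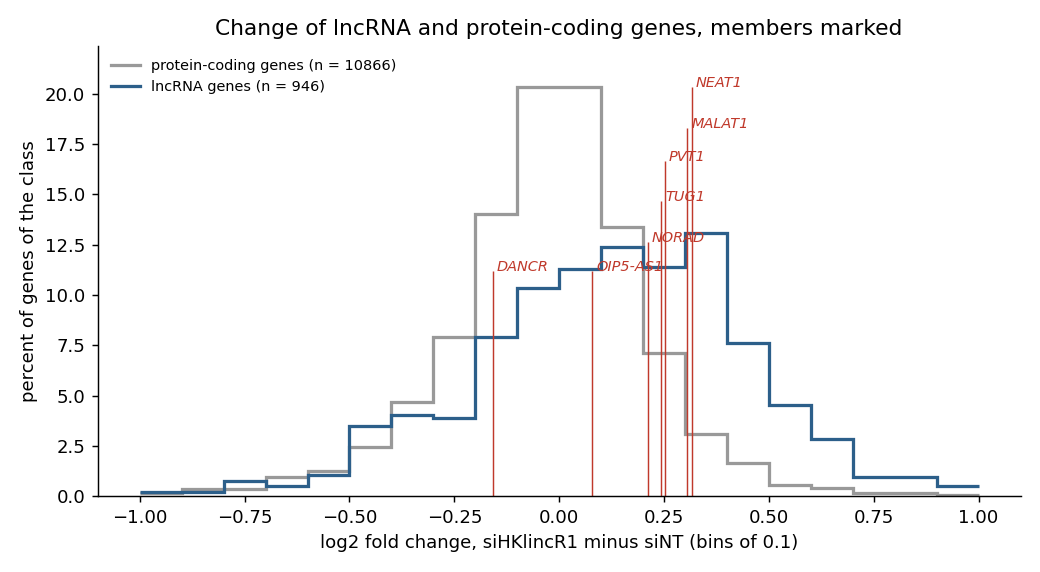
Distribution of log2 fold changes (siHKlincR1 minus siNT, bins of 0.1, from -1 to 1) for 946 lncRNA genes in blue and 10866 protein-coding genes in grey, as a percent of each class, with the 7 tested lncRNAs marked in red. The lncRNA curve lies to the right of the protein-coding one, with medians of 0.14 and -0.01, and 6 of the 7 marks are above 0.

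The changes were then set beside the siRNA seed match. NEAT1 and TUG1, which hold it, had log2 fold changes of 0.32 and 0.24, and the canonical transcripts of the other tested members lack it. Of those, MALAT1, PVT1 and NORAD had 0.31, 0.25 and 0.21, OIP5-AS1 had 0.08 and DANCR had -0.16. The members without a match in the canonical transcript thus included both values near those of NEAT1 and TUG1 and the 2 lowest. Other transcripts of PVT1 were not searched for a match. Over tested lncRNA genes the median was 0.14 with a match (70 genes) and 0.14 without (876 genes). Over protein-coding genes it was -0.06 with a match (2622 genes) and 0.00 without (8195 genes), and the former transcripts were longer, with a median of 4704 against 2998 bases.

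Replicate 3 stood apart for several members. In both groups replicate 3 had the lowest value of NEAT1, MALAT1, NORAD, TUG1 and OIP5-AS1 and the highest value of DANCR. NEAT1 in siHKlincR1 replicate 3, at 32.2 RPKM, was close to siNT replicate 3, at 31.7 RPKM. It was below siNT replicate 2, at 40.7 RPKM, and further below the other siHKlincR1 libraries, at 60.8 and 63.5 RPKM. The part of this in the results was not tested beyond the fits that leave these libraries out. Of all tested genes METTL25B, AMN1 and METTL27 were the most similar to NEAT1 across the 6 libraries, with Pearson r of 0.998, 0.997 and 0.997 as a description over libraries that share groups and replicate numbers. METTL25B, for instance, stood at 6.25, 5.46 and 4.79 RPKM in siNT and at 6.79, 6.94 and 4.81 RPKM in siHKlincR1.

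Genes beside the members were read next. The nearest protein-coding neighbours gave no call. FRMD8, on the lower side of NEAT1 and MALAT1 and 9249 bases from NEAT1, stood at 6.42 ± 0.671 RPKM in siNT and 5.37 ± 0.176 in siHKlincR1 (log2 fold change -0.25, limma unadjusted p = 0.0318, adjusted p = 0.277), opposite in sign to both lncRNAs. EPB41L1, a cytoskeletal linker 40486 bases from NORAD, was at -0.31 on the log2 scale (limma adjusted p = 0.242). MYC, a growth-promoting transcription factor 51575 bases from PVT1, stood at 106 ± 11.1 RPKM in siNT and 163 ± 40.3 in siHKlincR1. Its log2 fold change of 0.59 did not pass (limma adjusted p = 0.237), but passed with the replicate block (limma adjusted p = 0.0493). The estimates of MYC and of PVT1, at 1.19-fold, had the same sign. Of 10 distinct neighbours tested, 3 had an unadjusted p under 0.05, beside 16.2% of all genes.

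Several members share their locus with other genes. OIP5-AS1 overlaps OIP5 on the opposite strand and NUSAP1, a mitotic spindle protein, on the same strand. OIP5 stood at 8.92 RPKM in siNT and 6.61 in siHKlincR1 (log2 fold change -0.43, limma adjusted p = 0.182), and NUSAP1 at 57.9 and 48.4 (log2 fold change -0.28, limma adjusted p = 0.370). Since OIP5-AS1 and OIP5 are antisense to each other and the use of strand in counting is not given in the sources used here, reads of this pair may not be fully separated although the library kit keeps strand. DANCR overlaps ERVMER34-1 on the opposite strand, which stood at 0.663 RPKM in siNT and 0.543 in siHKlincR1, so reads from it are few beside those of DANCR.

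Genes for the proteins with which the lncRNAs work gave no call in the fit without the block. Values here and in the next paragraph are RNA of the encoding genes, and protein was not measured. Of 17 tested paraspeckle proteins, the partners of NEAT1, none was called, with a median log2 fold change of -0.02. NONO and SFPQ, which coat NEAT1, were at 0.02 and 0.04. FAM98A, with the largest difference in this list, was at -0.41 (limma adjusted p = 0.237), and its adjusted p with the replicate block was 0.0444 without reaching the 1.5-fold threshold. None of 17 nuclear speckle proteins, the partners of MALAT1, was called (median -0.05), and the splicing factor SRSF2 differed most, at -0.31 (limma adjusted p = 0.292).

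Among 11 Pumilio and NORAD partners none was called, with a median of 0.03. PUM2, a Pumilio protein, was at -0.04. IGF2BP2, an RNA-binding protein of fetal tissue and tumours, differed most. It stood at 11.9 ± 2.04 RPKM in siNT and 22.1 ± 5.58 in siHKlincR1 and passed with the replicate block (log2 fold change 0.86, limma adjusted p = 0.0187 with the block and 0.170 without). Of 11 subunits and partners of PRC2, the complex that methylates histone H3 and that several of these lncRNAs are reported to bind, none was called (median -0.07), and EZH1 differed most, at 0.35 (limma adjusted p = 0.342). Of 15 listed imprinted genes and their regulators, 14 were in the table and 5 could be tested, and none was called (median 0.05). IGF2R had the largest difference, 0.30 (limma adjusted p = 0.239), with all siHKlincR1 libraries above siNT. Of 5 tested partners of Cyrano, with a median of 0.02, none was called, and MYC passed with the replicate block. ELAVL1, a protein that OIP5-AS1 is known to bind, was at -0.17 (limma adjusted p = 0.457).

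Other lncRNAs linked to cancer gave no call either. Of 35 on a list made with earlier results of these data known, 31 were listed in the table, 6 of them at 0 in every library, and 12 could be tested. Of these 10 had a higher mean, and the median was 0.26, beside 0.14 for all lncRNA genes. MIR31HG differed most, from 1.73 ± 0.198 to 0.824 ± 0.374 RPKM (log2 fold change -1.05, limma adjusted p = 0.181). LINC-PINT passed with the replicate block (log2 fold change 0.64, limma adjusted p = 0.0444 with the block and 0.243 without).

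NEAT1, MALAT1 and NORAD are also among 55 candidate housekeeping lincRNAs that the study named from normal tissue panels. Of these 46 were matched in the table, 35 were tested and 1, HKlincR1 itself, was called. The median of the 35 was 0.12, close to that of all lncRNA genes, and 25 had a higher mean. NEAT1 at 40.8 RPKM, NORAD at 29.3 RPKM and MALAT1 at 17.3 RPKM were higher in siNT than the other tested candidates, whose median over all 35 was 2.33 RPKM.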

How the data were processed

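The deposited table holds RPKM values per Ensembl gene that the authors made from featureCounts reads on GRCh37 (Ensembl gene models). CASAVA 1.8.2 is named in the submitters' processing notes, and the aligner is not given in the sources used here. Library totals, gene lengths and whole reads were worked back from the unrounded RPKM, with 100% of values above 0 whole within 0.01. MEG3 has no length because it was listed at 0. The length found for H19 may hide a common factor, so its reads are minimum values.

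Genes that averaged 0.5 RPKM or more were tested in limma 3.58.1 (R 4.3.3) on log2(RPKM + 0.1) with the mean-variance trend and Benjamini-Hochberg adjustment. Fold changes are on that scale, which understates changes of low genes. The function was tested on simulated data. Exact permutation tests used scipy 1.17.1. The labels call the replicates biological, and nothing in the labels says that same-numbered libraries share a culture or day. The correlations of deviations from group means between same-numbered libraries were 0.142, 0.137 and 0.266, and the highest between other numbers was 0.113. Each was over 0.1, and so the numbers were taken as pairs and a replicate block was fitted beside the design without it. The highest between other numbers also passed 0.1, so this rule cannot tell pairs from other libraries. The pairing remains an assumption. Sequence matches used GENCODE v44 canonical transcripts, where 55538 gene IDs of the table were found.

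Members and gene lists were chosen with earlier results of these data known. Named genes were the members, HKlincR1, neighbours with an unadjusted p under 0.05, in each list the called genes or otherwise the gene with the largest difference, the 5 highest lncRNA genes and the 3 genes most like the member with the largest difference. Other genes (OIP5, NUSAP1, ERVMER34-1, NONO, SFPQ, PUM2, ELAVL1, BCAN-AS2, NBR2, LINC02806, the 2 lower lncRNA genes without a symbol and LINC-PINT) were added after their values were seen. For 2 housekeeping candidates, the transcript now belongs to ALDH2 or RGS9, and these were left out.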

Additional observations from a re-analysis of the deposited data

How the results depend on the processing

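No member was called under any of the 17 alternatives: a pseudocount of 1 or 0.01, a mean of at least 1 RPKM, no filter, median-of-ratios scaling, quantile normalization, no mean-variance trend, voom on the reads worked back, the replicate block, each library left out in turn, and, added after seeing the data, replicate 3 left out of both groups with and without the block. All 119 refits of member changes kept their direction. Those with another filter, without the trend or with the replicate block could not do otherwise, since their estimates equal the main one. The 28 refits of levels against HKlincR1 moved by less than 1 SD. Those without a single siNT library could not move further, because the SD came from the same 3 libraries. For NEAT1 they gave 10.0 to 12.8 times HKlincR1. Without siHKlincR1 replicate 3, TUG1 had limma adjusted p = 0.0495 with a fold change below 1.5, and NEAT1 had a log2 fold change of 0.63, above 1.5-fold, with limma adjusted p = 0.0797. Over all alternatives the log2 fold change ranged from 0.14 to 0.63 for NEAT1, 0.08 to 0.51 for MALAT1, 0.08 to 0.29 for NORAD, 0.15 to 0.37 for TUG1, 0.21 to 0.33 for PVT1, 0.02 to 0.11 for OIP5-AS1 and -0.27 to -0.02 for DANCR. The members' median was 0.0844 to 0.292 with single libraries left out, and only the lower value, without siNT replicate 3, differed from 0.24 by more than the spread between pairs. The replicate block changed the call of no member. Counts of called genes moved more, from 56 to 17 without the trend, 87 with voom, 204 with the replicate block, 189 with the block and without replicate 3, and 440 without the block and without both libraries of replicate 3. Leaving out single libraries gave 7 to 520 calls. The 520 calls, 315 lower and 205 higher, came without siHKlincR1 replicate 3, the 7 without siNT replicate 1 or 2, and the cause was not tested. The share of tested lncRNA genes with a higher mean, a quantity added after seeing the data, was 66.8%. It was 71.4% at a mean of at least 1 RPKM, 56.3% with no filter, and 60.3 to 69.4% with single libraries left out. Scaling left the median of all genes within 0.01 of 0. A 1.5-fold change lay within the intervals of NEAT1 in both fits and of MALAT1 in the fit without the replicate block, and not within that of MALAT1 with the block.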
